A study of Mus musculus with 6 samples.

Results

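The Bcl2 family genes that set the balance between survival and mitochondrial death were followed in neutrophils from infected corneas. The set holds 10 genes, picked by name: the survival genes Mcl1, Bcl2, Bcl2l1, Bcl2a1a, Bcl2a1b and Bcl2a1d, the pore-forming effectors Bax and Bak1, and the BH3-only genes Bcl2l11 and Bmf. All 10 were found by symbol among the 54838 genes of the count tables. Mouse corneas were infected with Pseudomonas aeruginosa of the laboratory strain PAO1, and 24 h later neutrophils were isolated from them by cell sorting for RNA sequencing. The tested libraries came from mice labelled IL1a -/-, a knockout of the gene of the inflammatory cytokine IL-1 alpha. Their controls were labelled WT, with 3 libraries per genotype. Every library came from infected tissue, and no uninfected group was part of the comparison. The sources used here do not give mouse strain, age, sex or the kind of Il1a allele. Replicates are labelled as biological but no animals are named, so p-values measure the spread between these libraries.

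Neutrophils are short-lived cells whose lifespan is set largely by this protein family. Survival members hold the effectors BAX and BAK inactive at the outer mitochondrial membrane, and BH3-only members bind the survival proteins or the effectors and release that brake. MCL-1 and the A1 proteins turn over quickly, so their supply depends on continued transcription, and inflammatory signals such as NF-kB and growth factor signals are known to raise A1 and Mcl1 in these cells. When the effectors open the outer membrane, cytochrome c escapes and activates caspases through the apoptosome.

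The 3 Bcl2a1 genes, which encode A1 proteins, are near copies of each other on chromosome 9, and their values have to be read with that in mind. Their coding sequences are 519 bases long in GENCODE M21 and differ at 12 positions among the 3 genes. The opening 150 bases hold 7 of these positions, and they are shown here on the coding strand, with capitals at the positions where the 3 genes differ. The stretches lie on GRCm38 at chr9:88957051-88957200 (plus strand) for Bcl2a1a, chr9:89199360-89199509 (plus strand) for Bcl2a1b and chr9:88731570-88731719 (minus strand) for Bcl2a1d.
Bcl2a1a: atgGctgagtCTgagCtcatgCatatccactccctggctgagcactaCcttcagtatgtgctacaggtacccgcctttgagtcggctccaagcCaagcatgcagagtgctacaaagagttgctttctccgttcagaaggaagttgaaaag
Bcl2a1b: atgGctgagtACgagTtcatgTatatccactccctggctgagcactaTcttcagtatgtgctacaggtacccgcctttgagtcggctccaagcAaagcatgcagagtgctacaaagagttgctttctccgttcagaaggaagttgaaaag
Bcl2a1d: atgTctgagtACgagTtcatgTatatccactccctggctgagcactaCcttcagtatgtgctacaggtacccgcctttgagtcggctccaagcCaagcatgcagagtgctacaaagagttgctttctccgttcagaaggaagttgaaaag
Over the coding sequence Bcl2a1a and Bcl2a1b were 97.9% identical, Bcl2a1a and Bcl2a1d 98.7%, and Bcl2a1b and Bcl2a1d 98.8%. Of all stretches of 100 bases in a transcript, 56.5% of those of Bcl2a1a, 68.9% of those of Bcl2a1b and 45.3% of those of Bcl2a1d occurred in no other Bcl2a1 gene. With 50 bases the shares were 31.0%, 42.4% and 20.5%. Reads that fall in shared stretches cannot be given to a single copy, so the values of the separate genes are uncertain and their sum is given beside them.

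Bcl2l11 and Bmf, the BH3-only genes, lie on chromosome 2 near Il1a, the knocked-out gene, and are the members whose position bears on the comparison. Bcl2l11 (ENSMUSG00000027381, chr2:128126038-128162547, plus strand) is 1.14 Mb from Il1a, and Bmf (ENSMUSG00000040093, chr2:118528757-118549687, minus strand) is 10.8 Mb from it. Bcl2l11 encodes BIM and is a known target of FoxO transcription factors. Of its 2 promoter windows in the RefSeq table, the one with a FoxO match (GRCm38.p6, chr2:128125788-128126087, plus strand, 250 bases before to 50 after an annotated start) is printed with the motif in capitals. The Bmf window printed with it (chr2:118544538-118544837, minus strand) is the only one of its 3 annotated windows with a match to the NF-kB consensus motif, shown in capitals.
Bcl2l11: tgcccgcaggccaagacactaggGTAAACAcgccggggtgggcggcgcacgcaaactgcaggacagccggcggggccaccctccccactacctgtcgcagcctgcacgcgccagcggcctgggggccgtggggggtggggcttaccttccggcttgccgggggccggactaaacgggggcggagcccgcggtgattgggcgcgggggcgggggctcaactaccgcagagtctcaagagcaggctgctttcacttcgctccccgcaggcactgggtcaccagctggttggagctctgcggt
Bmf: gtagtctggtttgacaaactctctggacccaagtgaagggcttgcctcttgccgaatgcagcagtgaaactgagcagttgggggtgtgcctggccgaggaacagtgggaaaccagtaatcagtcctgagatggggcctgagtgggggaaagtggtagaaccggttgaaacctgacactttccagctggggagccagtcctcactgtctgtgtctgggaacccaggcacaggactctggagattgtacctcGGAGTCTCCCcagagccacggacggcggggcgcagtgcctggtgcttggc
The FoxO motif GTAAACA was searched on both strands, as was the NF-kB consensus of 10 letters, and these matches overlapped no other motif searched. Across the 15 windows of the 10 genes, the FoxO motif was found in 1, that of Bcl2l11, and the NF-kB consensus in 2, of Bcl2l1 and Bmf. Of 32851 promoter windows of the same length, 3.65% held the FoxO motif and 4.51% the NF-kB consensus. A match is a description of the letters in the window.

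The libraries held between 22855676 and 33626008 gene counts. Il1a itself had 92, 174 and 118 counts in the IL1a -/- libraries, against 136694, 192428 and 272865 in WT, so every library carried the Il1a level of its label (log2 fold change -10.55, SE 0.35, edgeR adjusted p = 5.3e-07). Neutrophil markers dominated all libraries: the 8 listed genes summed to 25451 to 28468 CPM (library-scaled counts, corrected by TMM) in IL1a -/- and 26681 to 31734 CPM in WT. Markers of T and NK cells summed to 0.692 to 1.35 CPM in IL1a -/- and 1.497 to 1.545 CPM in WT, and those of B cells to 0.262 to 0.493 CPM and 0 to 0.161 CPM, so neither pair of ranges overlapped. Cd3e, Nkg7, Klrb1c and Cd79b had no counts. Markers of monocytes and macrophages summed to 670.3 to 673.7 CPM in IL1a -/- and 538.6 to 592.4 CPM in WT. Of the 10 tested genes of that list, 7 were higher at an unadjusted p under 0.05, against 5.99% of all tested genes in either direction. After adjustment 0 passed in edgeR's quasi-likelihood test, and none was at 0 counts. The neutrophil, dendritic cell, and stromal and vessel lists each had 1 gene lower in IL1a -/- at an unadjusted p under 0.05. No gene of the other marker lists was called either: dendritic cell markers summed to 0.524 to 1.79 CPM in IL1a -/- and 1.31 to 2.99 CPM in WT, corneal epithelial markers to 21.03 to 92.5 and 14.4 to 122 CPM, and stromal and vessel markers to 35.3 to 59.3 and 47.2 to 58.5 CPM. A single library differed from the rest: IL1a -/- replicate 2 scored 67.3 on principal component 1, and the remaining libraries scored -32.9 to 2.10. The 3 most abundant neutrophil markers were S100a9, at 13296 ± 897 CPM in IL1a -/- and 14129 ± 1390 CPM in WT, S100a8 and the G-CSF receptor gene Csf3r.

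Survival transcripts made up most of the summed level of these 10 genes, a chosen part of the family. Per kilobase of gene model, which allows levels to be compared between genes, Mcl1 averaged 2943 ± 209 TPM (counts per kilobase of exon, scaled to a fixed total) in IL1a -/- and 2797 ± 78 TPM in WT (SD, n = 3 each). Next came Bcl2a1a at 740.4 ± 45.6 and 659 ± 83 TPM, Bcl2a1d at 654 ± 59 and 545 ± 53 TPM, and Bcl2l1, the gene of BCL-XL, at 371 ± 19 and 347 ± 26 TPM, in IL1a -/- and WT. Bcl2l11 followed at 244 ± 30 TPM in IL1a -/- and 197 ± 5 TPM in WT. Bcl2a1b stood at 168 ± 10 and 163 ± 18 TPM and Bax at 48.9 ± 1.4 and 35.9 ± 0.9 TPM. The remaining genes were near the floor: Bmf at 0.322 ± 0.173 and 1.63 ± 0.68 TPM, Bak1 at 0.483 ± 0.119 and 0.696 ± 0.206 TPM, and Bcl2 at 0.204 ± 0.050 and 0.0759 ± 0.0211 TPM. Neighbours in this order did not overlap over the 6 libraries except Bcl2a1a with Bcl2a1d and Bmf with Bak1. With the length of the longest transcript in place of all exons, Bcl2l1 stood above Bcl2a1d.

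The survival genes together made up 93.7%, 94.9% and 94.2% of the summed TPM of the 10 genes in the IL1a -/- libraries and 94.98%, 95.1% and 95.1% in WT. Mcl1 alone took 57.1%, 59.7% and 53.8% in IL1a -/- and 61.9%, 58.6% and 56.4% in WT. The plot of transcript shares shows the same layering in every library.

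**Figure D1:**
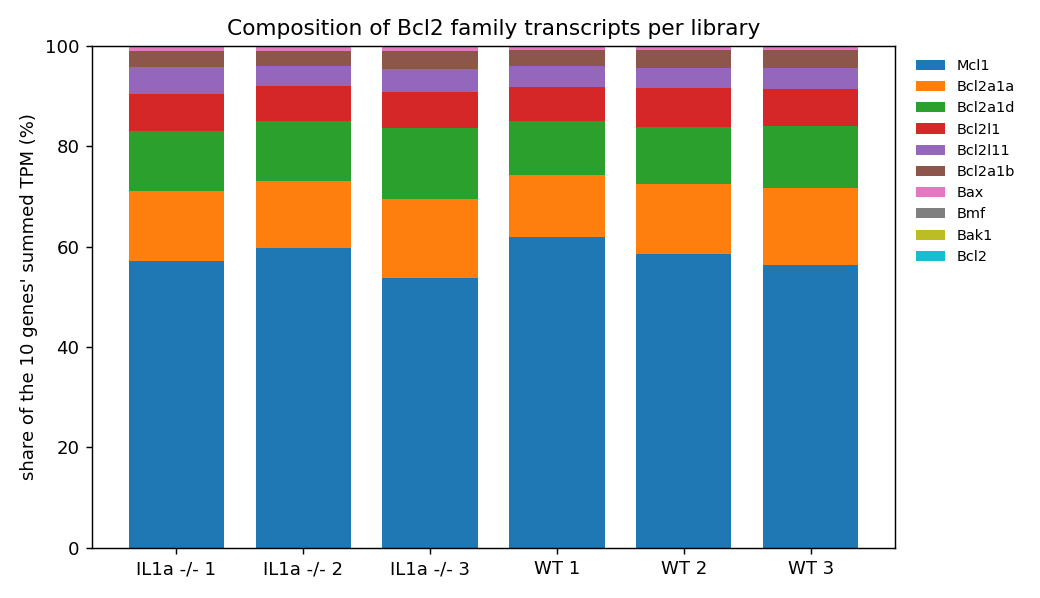
Share of the summed TPM of the 10 Bcl2 family genes (%, vertical axis) in each library, IL1a -/- on the left and WT on the right, with 1 stacked bar per library and 1 colour per gene. Mcl1 takes 53.8% to 61.9% of each bar, and Bmf, Bak1 and Bcl2 are too scarce to be seen.

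None of the 10 genes passed the test between genotypes. All 10 passed the filter on low counts, and 0 of them were called by edgeR's quasi-likelihood test at an adjusted p under 0.05, where 0.101% of the 11924 tested genes were called, 0.0755% higher and 0.0252% lower in IL1a -/-. At an unadjusted p under 0.05 there were 2 members, Bmf and Bax, against 5.99% of all tested genes. DESeq2, which called 0.579% of the tested genes, called 1 member, Bmf, and limma-voom called 0. The median log2 fold change of the 10 genes was 0.045, and that of all tested genes was 0.0045. For 5 of the 10 genes the genotypes did not overlap, against 11.6% of all tested genes. Bcl2, Bcl2l11 and Bax were higher in every IL1a -/- library, as were 6.12% of all tested genes, and Bmf and Bak1 were lower in every one, as were 5.48%. These counts describe the libraries and were not tested as a set. They also moved with the scaling, since Bcl2l11 overlapped with DESeq2 size factors, and with library size alone Bak1 overlapped and Bcl2a1d did not. With the strand columns summed, a setting added after the data were seen like these scalings, Bak1 also overlapped and 4 of the 10 genes did not. In sorted cells measured in bulk, a different number of cells of a type and a different amount of RNA per cell cannot be told apart.

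**Figure D2:**
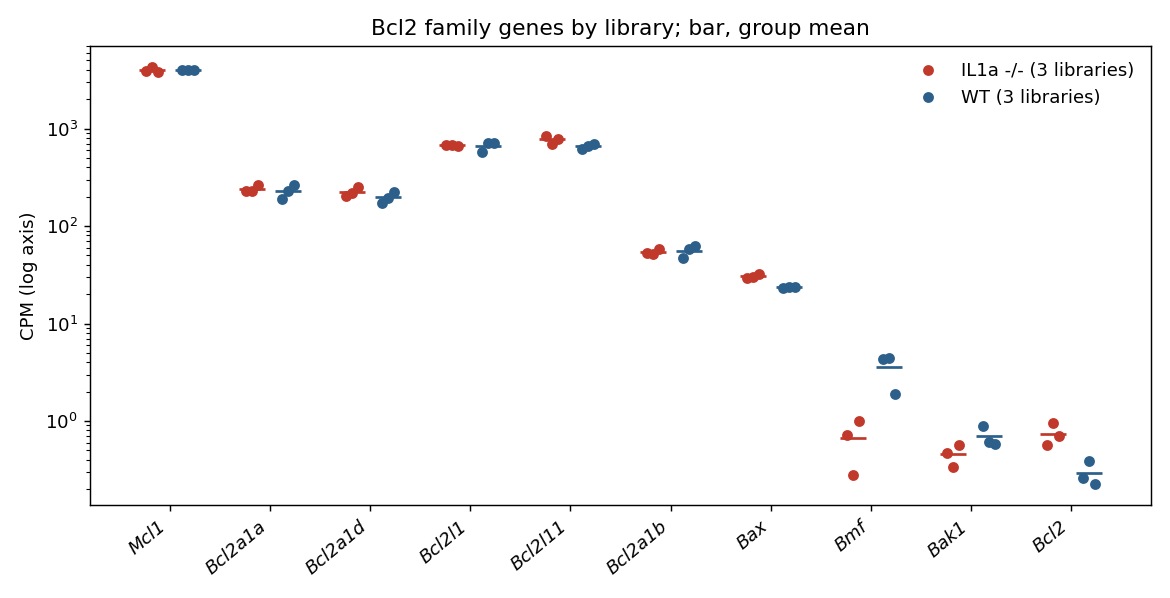
CPM on a log axis for each of the 10 genes, ordered by TPM, with 1 point per library and a bar at the group mean, IL1a -/- in red on the left of each pair and WT in blue. Bmf is the gene with the widest gap, at 0.278 to 1.00 CPM in IL1a -/- and 1.90 to 4.47 CPM in WT.

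**Figure D3:**
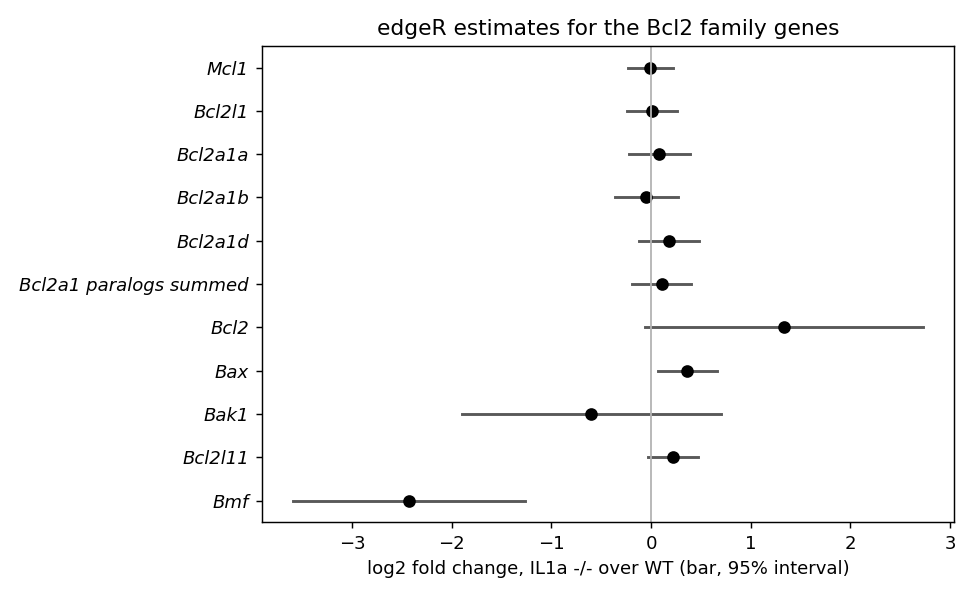
Log2 fold change of IL1a -/- over WT (horizontal axis) with its 95% interval for each gene and for the summed Bcl2a1 genes, from edgeR's fit across all genes. The intervals of Mcl1, Bcl2l1 and the Bcl2a1 genes lie between -0.36 and 0.48, and those of the scarce genes Bcl2, Bak1 and Bmf are wide.

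Mcl1, the survival gene on which neutrophils are known to depend most, had nearly the same mean in both genotypes. Mcl1 (ENSMUSG00000038612, chr3:95658788-95663176, plus strand) had 3857, 4299.5 and 3773 CPM in IL1a -/- and 3942, 4025 and 4032 CPM in WT. The IL1a -/- libraries lay on both sides of the narrow WT range. The log2 fold change was -0.0085 with a 95% interval from -0.23 to 0.22 (edgeR adjusted p = 0.99), that is, from 0.85-fold to 1.16-fold. The direction of so small a value turned with library size alone, with a filter at 1 CPM and without IL1a -/- replicate 1 or 3.

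Bcl2l1 (ENSMUSG00000007659, chr2:152780668-152831728, minus strand) encodes BCL-XL, a long-lived survival protein. It had 681, 673 and 662 CPM in IL1a -/- and 581, 713 and 708 CPM in WT. The IL1a -/- libraries lay between the lowest WT library and the other two. The log2 fold change was 0.0096 with a 95% interval from -0.24 to 0.26 (edgeR adjusted p = 0.99), and its sign turned without a low-count filter and without WT replicate 1 or IL1a -/- replicate 1 or 2. Bcl2l1 is on the same chromosome as Il1a but 23.5 Mb away.

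The Bcl2a1 genes overlapped between genotypes. Bcl2a1a (ENSMUSG00000102037, chr9:88956900-88962419, plus strand) had 228.5, 229 and 262 CPM in IL1a -/- and 189, 229.9 and 262 CPM in WT. Bcl2a1d (ENSMUSG00000099974, chr9:88723285-88731914, minus strand) had 201, 217 and 253 CPM in IL1a -/- and 173, 195 and 224 CPM in WT. Bcl2a1b (ENSMUSG00000089929, chr9:89199209-89207827, plus strand) had 52.6, 51.6 and 58.6 CPM in IL1a -/- and 47.0, 58.1 and 63.0 CPM in WT. In WT, all 3 genes were lowest in replicate 1 and highest in replicate 3, and in IL1a -/- all 3 were highest in replicate 3.

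Their log2 fold changes were 0.081 (95% interval -0.23 to 0.39) for Bcl2a1a, 0.18 (-0.12 to 0.48) for Bcl2a1d and -0.047 (-0.36 to 0.27) for Bcl2a1b, with edgeR adjusted p from 0.94 to 0.99. The sign turned without WT replicate 1 for Bcl2a1a, and with library size alone or without WT replicate 3 for Bcl2a1b. Summed with the scarce further copy Bcl2a1c, the genes had 482, 498 and 574 CPM in IL1a -/- and 409, 483 and 549 CPM in WT, with a log2 fold change of 0.11 (95% interval -0.19 to 0.40, edgeR adjusted p = 0.97). Without WT replicate 1 the log2 fold change of the sum was -0.0095.

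The split of reads among the copies was similar in both genotypes. Bcl2a1a took 47.4%, 46.1% and 45.7% of the counts of the 3 genes in IL1a -/- and 46.2%, 47.6% and 47.7% in WT. Bcl2a1b took 10.9%, 10.4% and 10.2% in IL1a -/- and 11.5%, 12.0% and 11.5% in WT, and these ranges did not overlap. Bcl2a1d took the rest. Bcl2a1b had the fewest counts of the 3, and the largest share of its transcript is found in no other copy. Of its 817 exonic bases, 401 are shared with the gene model Gm29094 on the same strand, and the sources used here do not give how reads in that stretch were assigned, so its level is uncertain.

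Bcl2 (ENSMUSG00000057329, chr1:106538178-106714274, minus strand), the founding survival gene, which is low in mature neutrophils and high in lymphocytes, was near the detection limit. It had 18, 31 and 16 counts in IL1a -/- and 7, 12 and 7 counts in WT. Every IL1a -/- library was above every WT library, at 0.566, 0.956 and 0.699 CPM against 0.262, 0.386 and 0.225 CPM. Its log2 fold change was 1.33 with a 95% interval from -0.062 to 2.73 (edgeR adjusted p = 0.85). The highest value was in IL1a -/- replicate 2, the library that stood apart, and without it the log2 fold change was 1.09. Markers of monocytes and macrophages were also higher in IL1a -/-. C1qb, a complement gene, was chosen after its values were seen. It had 2.11, 8.29 and 4.02 CPM in IL1a -/- and 0.973, 1.26 and 0.740 CPM in WT. The 3 most abundant genes of the same list differed less, with log2 fold changes of 0.17 for Cd68, 0.21 for Csf1r and 0.22 for Adgre1. In IL1a -/-, replicate 2 was the highest library for Bcl2, C1qb and the other scarcer genes of the list, but for none of the 3 most abundant. All 10 genes of that list had positive log2 fold changes, with a median of 1.80. They summed to 671.1, 670.3 and 673.7 CPM in IL1a -/-, nearly level, and to 538.6 to 592.4 CPM in WT. Markers of lymphocytes went both ways. Of 4 B cell markers, 0 passed the low-count filter and Cd79b had no counts. They summed to 0.377, 0.493 and 0.262 CPM in IL1a -/- and 0.112, 0.161 and 0 CPM in WT. The sum of the T and NK cell markers was lower in every IL1a -/- library, at 0.692, 1.26 and 1.35 CPM against 1.497, 1.545 and 1.544 CPM in WT. Only Cd3d and Trac of that list had counts, and they went opposite ways. Their log2 fold changes were -0.96 (edgeR adjusted p = 0.87) and 0.61 (edgeR adjusted p = 0.97), so the lower sum came from Cd3d. The part of these markers in the Bcl2 result was not tested. An antisense gene, D630008O14Rik, overlaps 558 of the 9157 exonic bases of Bcl2.

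Bax (ENSMUSG00000003873, chr7:45461697-45466898, minus strand), an effector that forms pores in the mitochondrial membrane, had 29.0, 30.2 and 32.3 CPM in IL1a -/- and 23.3, 23.9 and 23.9 CPM in WT. The genotypes did not overlap, and the WT libraries were nearly level. Bax had a log2 fold change of 0.36 with a 95% interval from 0.068 to 0.66, and its unadjusted p was under 0.05. It missed the threshold over all genes (edgeR adjusted p = 0.75). Over 15 alternative settings the log2 fold change lay between 0.32 and 0.42, and none of them called it, with an adjusted p of 0.49 or more. Bax shares 192 of its 1576 exonic bases with the gene model Gm45808 on the same strand. The monocyte and macrophage markers were also higher in IL1a -/-, and their part in the Bax result was not tested.

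Bak1 (ENSMUSG00000057789, chr17:27019810-27029009, minus strand), the other effector, was scarce. It had 15, 11 and 13 counts in IL1a -/- and 24, 19 and 18 counts in WT, or 0.472, 0.339 and 0.568 CPM against 0.898, 0.612 and 0.579 CPM. Every IL1a -/- library was below every WT library by a narrow margin, and the log2 fold change was -0.60 with a 95% interval from -1.90 to 0.70 (edgeR adjusted p = 0.95). Exons of Bak1 overlap Ggnbp1 on the opposite strand, and the counts held equal shares of both strands, so reads of the pair cannot be told apart. Counted by strand and summed, the Bak1 counts were 25, 18 and 20 in IL1a -/- and 36, 24 and 32 in WT. Scaled to depth these were 0.745, 0.527 and 0.829 CPM in IL1a -/- and 1.28, 0.732 and 0.974 CPM in WT, so the genotypes overlapped and both the level of Bak1 and its separation are uncertain. In every library Bax exceeded Bak1 per length, by 93.9-, 136- and 86.9-fold in IL1a -/- and 39.6-, 59.6- and 63.1-fold in WT.

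Per length, Mcl1 exceeded Bax by 61.4-, 65.5- and 53.8-fold in IL1a -/- and by 78.0-, 77.8- and 77.7-fold in WT. This pair was chosen after its values were seen. Every IL1a -/- library had a lower ratio than every WT library. The ratio of Mcl1 to Bcl2l11 was 10.8, 14.4 and 11.4 in IL1a -/- and 14.9, 14.2 and 13.5 in WT, and these ranges overlapped.

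Bcl2l11, whose product BIM binds all survival members and drives the death of cytokine-deprived leukocytes, was the abundant BH3-only gene. It had 842, 701.1 and 780.2 CPM in IL1a -/- and 623, 666 and 700.7 CPM in WT. The lowest IL1a -/- library, replicate 2, was level with the highest WT library. Bcl2l11 had a log2 fold change of 0.22 with a 95% interval from -0.025 to 0.47 (edgeR adjusted p = 0.87), and it stayed between 0.15 and 0.29 over 15 alternative settings, none of which called it. Foxo3, a FoxO factor gene known to act on Bcl2l11, was at 11.4 ± 1.0 CPM in IL1a -/- and 15.3 ± 3.8 CPM in WT (SD, n = 3 each; edgeR adjusted p = 0.87).

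Bmf, a BH3-only gene whose product is held at the cytoskeleton and released by stress or loss of attachment, had the largest difference of the 10. It had 23, 9 and 23 counts in IL1a -/- and 115, 139 and 59 counts in WT. These correspond to 0.723, 0.278 and 1.00 CPM in IL1a -/- and 4.30, 4.47 and 1.90 CPM in WT, so the genotypes did not overlap. WT replicate 3 was well below the other two WT libraries. For Bmf the log2 fold change was -2.43 (SE 0.52, 95% interval -3.59 to -1.26), which corresponds to a level 5.38-fold lower in IL1a -/-. Over all genes it missed the threshold (edgeR adjusted p = 0.24), and it ranked 42 of 11924 by p.

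The call of Bmf depended on the method. DESeq2 called it (adjusted p = 0.0022), as did edgeR without a low-count filter (adjusted p = 9.7e-05), a setting that called 0.766% of 24151 genes. The other 13 of 15 settings did not call it, and the adjusted p reached 0.74 without WT replicate 2. The log2 fold change itself lay between -2.82 and -2.05 in all 15. As the plot of Bmf by setting shows, the size of the difference moved far less than the adjusted p. Per length, Bcl2l11 exceeded Bmf by 762-, 1653- and 508-fold in IL1a -/- and by 94.6-, 97.4- and 242-fold in WT.

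**Figure D4:**
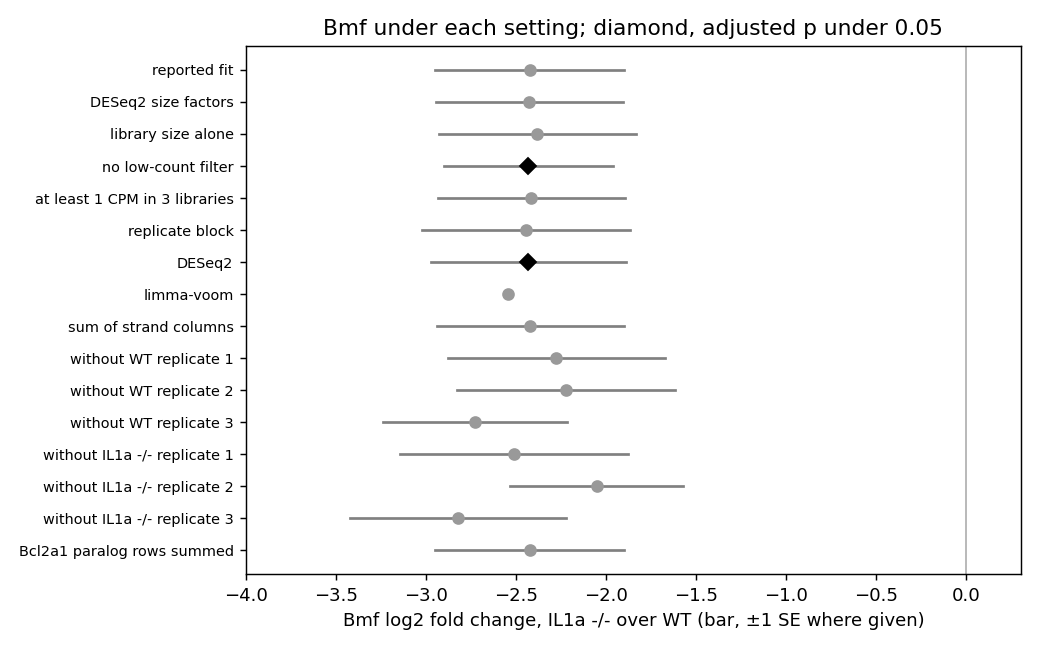
Log2 fold change of Bmf, IL1a -/- over WT (horizontal axis), under the reported fit and 15 alternatives (rows), with bars of 1 SE where the tool gives one. All points lie between -2.82 and -2.05, and the diamonds mark the 2 settings with an adjusted p under 0.05.

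The position of Bmf and Bcl2l11 near the knocked-out gene was compared with that of other genes in the region. Of 178 tested genes within 15 Mb of Il1a, Il1a left out, 5.06% were called by edgeR, against 0.017% of 11745 genes elsewhere. The called genes included Gm14023, which overlaps Il1a, and Ckap2l, which lies next to it, with log2 fold changes of -2.81 and -6.11. Leaving out Il1a alone thus did not remove its locus from that share. The genotypes did not overlap for 29.8% of the genes in the region and for 11.3% elsewhere. Bmf had the 4th lowest log2 fold change and the 17th smallest p of the 178. Within 1 Mb of Bmf, 21 other genes were tested and 0 were called (edgeR adjusted p; 4 at an unadjusted p under 0.05), with log2 fold changes from -1.73 to 1.47 and a median size of 0.47, against 0.22 for all tested genes. Bmf lay below all 21, and for 8 of them the genotypes did not overlap. Beyond 1 Mb but in the same region, Mapkbp1 had a like log2 fold change of -2.45 (edgeR adjusted p = 0.25). The nearest called gene was Ehd4, an endosomal trafficking gene, 1.54 Mb away.

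Within 1 Mb of Bcl2l11, 24 other genes were tested and 0 were called (3 at an unadjusted p under 0.05), with log2 fold changes from -1.44 to 2.14 and a median size of 0.38. Around Bcl2l1, on the same chromosome but outside the region, the median size was 0.16 among 27 tested genes. For Bmf and Bcl2l11, the effect of the knockout and that of DNA carried with the Il1a allele cannot be told apart in this design. All IL1a -/- libraries share both.

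**Figure D5:**
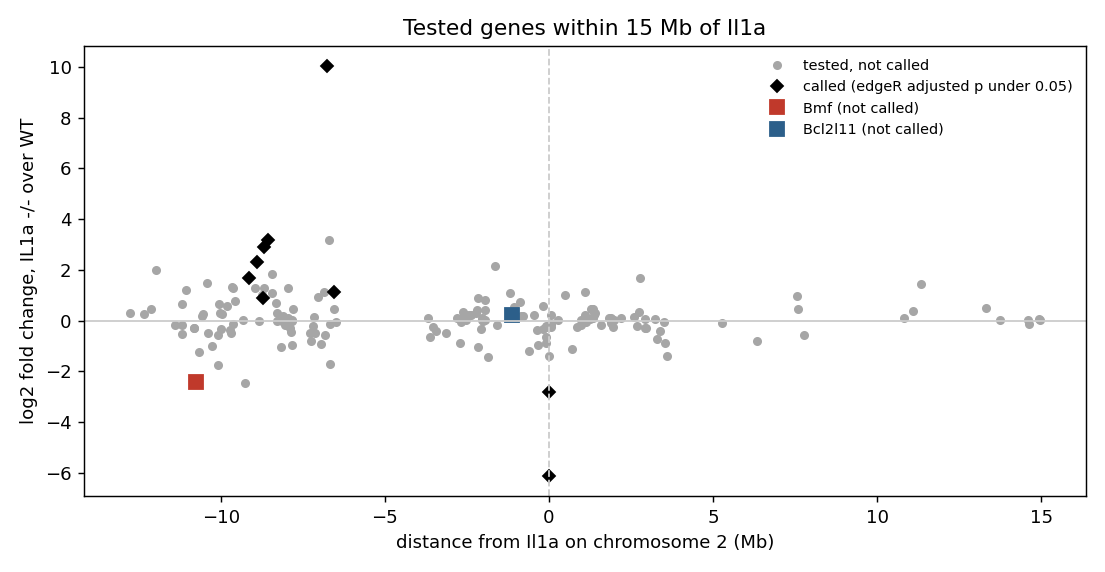
Log2 fold change of IL1a -/- over WT (vertical axis) against distance from Il1a on chromosome 2 in Mb (horizontal axis) for 178 tested genes, with called genes as black diamonds and Bmf and Bcl2l11 as red and blue squares. Bmf lies at -2.43, the 4th lowest of the 178 values. Of the called genes, 7 between Bmf and Il1a have positive values, and Bcl2l11 lies near 0. At the Il1a locus itself, the called genes Ckap2l and Gm14023 lie at -6.11 and -2.81.

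Across the libraries, the genes whose log2 CPM most resembled that of Mcl1 were Wipi2, Vdac1 and Srsf7, with Pearson correlations of 0.998, 0.990 and 0.990 over 6 libraries among 5662 genes whose mean reached 5 CPM. Those most like Bmf were Cox6c, Kin and Gm26773, at 0.991, 0.991 and 0.990. They were the best of many candidates over few libraries, which share depth and preparation, and are given as a description only.

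The genes around the family in the same pathway gave 0 calls as well. Of 59 genes in 5 lists, 48 were tested and 0 were called in either direction by edgeR's quasi-likelihood test or DESeq2, where 0.101% and 0.579% of all tested genes were called. At an unadjusted p under 0.05 there were 3, 1 higher and 2 lower, against 5.99% of all tested genes. The median log2 fold change of the 48 genes was -0.034. The genotypes did not overlap for 4 genes higher and 2 lower in IL1a -/-, against 6.12% and 5.48% of all tested genes. Those of them named below are Bid, Bcl2l15, Casp6, Xiap and Birc2.

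Among the other Bcl2 family genes, 9 of 16 were tested. The most abundant were Pmaip1, the BH3-only gene of NOXA, which neutralises MCL-1, at 80.1 and 78.6 TPM in IL1a -/- and WT, and the mitophagy gene Bnip3 at 73.8 and 76.0 TPM. The summed strand columns held 2.44 times the unstranded counts for Bnip3 and 1 times for Pmaip1, so the level of Bnip3 and the order of the pair are uncertain. Bid, which links death receptors to mitochondria, was at 23.9 ± 2.3 CPM in IL1a -/- and 29.8 ± 1.3 CPM in WT (SD, n = 3 each; log2 fold change -0.32, edgeR adjusted p = 0.83). Bcl2l15 was at 1.09 ± 0.36 and 0.554 ± 0.245 CPM (log2 fold change 0.96, edgeR adjusted p = 0.91). Bcl2l14 and Hrk had no counts in any library.

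Of 13 genes of caspases and the apoptosome, 12 were tested. Cycs, the gene of cytochrome c, was at 20.7 and 18.5 TPM in IL1a -/- and WT. Casp6, an executioner caspase gene, was at 3.36 ± 1.41 CPM in IL1a -/- and 5.97 ± 0.82 CPM in WT (SD, n = 3 each). Its log2 fold change was -0.83 (edgeR adjusted p = 0.78). Aifm1, the gene of a mitochondrial flavoprotein released in cell death, was at 6.62 ± 0.71 and 4.75 ± 1.84 CPM (log2 fold change 0.48, edgeR adjusted p = 0.92).

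Of 9 inhibitors of apoptosis, 7 were tested. Birc3, an NF-kB target that restrains death receptor signalling, was the most abundant at 401 and 391.6 TPM in IL1a -/- and WT. Xiap, which blocks caspases directly, had the smallest p of all the lists (log2 fold change 0.56, edgeR adjusted p = 0.57). It was at 32.3 ± 4.0 CPM in IL1a -/- and 21.9 ± 3.2 CPM in WT (SD, n = 3 each). Its relative Birc2 was at 26.8 ± 1.4 and 23.6 ± 1.3 CPM (log2 fold change 0.18, edgeR adjusted p = 0.94).

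Of 9 death receptors and adaptors, 8 were tested. Fas, a death receptor gene, stood at 638 and 628 TPM in IL1a -/- and WT, and Tnfrsf1a, the gene of the main TNF receptor, at 315 and 322 TPM. Tnfrsf1a had a log2 fold change of -0.11 (edgeR adjusted p = 0.95) and Traf2, an adaptor gene, 0.22 (edgeR adjusted p = 0.94). All 12 regulators of Bcl2 family proteins and genes were tested. Pim1, a kinase gene that promotes survival, was at 219 and 245 TPM in IL1a -/- and WT (log2 fold change -0.24, edgeR adjusted p = 0.91), and Ddit3, the gene of the stress factor CHOP, at 54.7 and 51.6 TPM. Their summed strand columns held 1.47 and 1.20 times the unstranded counts.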

How the data were processed

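Raw gene counts of 6 libraries, 3 IL1a -/- and 3 WT, were used as the authors deposited them. The deposited counts have an unstranded column, used here, and a column for each strand, each strand holding 49.9% to 50.1% of the stranded counts. Per the submitters' processing notes, FastQC 0.11.9, Trimmomatic 0.39 and STAR 2.7.8a were used with the GRCm38 build. The sources used here do not give the annotation release or the treatment of reads shared by genes. Per the labels' protocols, libraries were made with a low-input SMART-seq kit.

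Symbols were taken from GENCODE M21, which held 54809 of the 54838 gene IDs. Genes were filtered with filterByExpr, scaled by TMM and tested in edgeR 4.0.16 (robust quasi-likelihood test, IL1a -/- over WT, Benjamini-Hochberg adjustment over 11924 genes, threshold 0.05). CPM values are TMM-scaled, and TPM were computed from counts per kilobase of merged exons. DESeq2 1.42.0, limma-voom (limma 3.58.1), other scalings and filters, the sum of the strand columns, summed Bcl2a1 genes, a replicate block and leaving out each library were tried. The scripts were tested on simulated data. Members and lists were chosen with earlier results of these data known. From each pathway list, called genes or else the 2 with the smallest p and the 2 with the highest TPM were named, from each marker list the 3 most abundant at most, and for Mcl1 and Bmf the 3 genes most alike. C1qb, Mapkbp1, Ckap2l and Gm14023 were named outside this rule, after their values were seen. A gene that this rule names is not reported here. Depth ran from 22855676 to 33626008 gene counts.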

Additional observations from a re-analysis of the deposited data

How the results depend on the processing

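Of 11924 tested genes 12 were called, 9 higher and 3 lower. Without a low-count filter there were 185 (105 higher, 80 lower), with a filter at 1 CPM 23 (17 higher, 6 lower) and with DESeq2 69 (48 higher, 21 lower). Leaving out 1 library gave 7 to 24 calls, 4 to 19 of them higher and 3 to 5 lower. Members called numbered 0, and 1 (Bmf, log2 fold change -2.43 in both) without a filter or with DESeq2, while leaving out 1 library gave 0 in each case. Directions turned for values near 0. Mcl1 was at 0.048 with library size alone, a scaling that moved the median of all genes to 0.060, and at 0.0038 with the filter at 1 CPM, and -0.078 to 0.027 with 1 library left out. Bcl2l1 was at -0.0015 without a filter, and -0.096 to 0.059 with 1 library left out. Bcl2a1b was at 0.017 with library size alone, and -0.17 to 0.044 with 1 library left out. Bcl2a1a ranged from -0.050 to 0.19 and the summed Bcl2a1 genes from -0.0095 to 0.21 with 1 library left out. The causes were not tested.

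Libraries that share a replicate number correlated at 0.14, 0.057 and 0.0034 in their deviations from the group means, so the numbers were not taken as pairs. With a replicate block 20 genes were called, 17 of them higher, and Bmf was at -2.45 (edgeR adjusted p = 0.31).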
